A study of Homo sapiens with 6 samples.

Results

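The 6268 regions described here lie near annotated starts and overlap one of the strongest open chromatin peaks of every ATAC-seq library of SK-N-AS cells. The cells came from a vehicle-treated xenograft or from xenografts that had become resistant to indisulam. These regions are called promoter regions below. The strongest summit lay within 1000 bp of a start in all 6 lists in 89.8% of them. They were chosen by peak p-values. The top 20000 peaks by −log10 p of each of the 6 peak lists on chromosomes 1 to 22 were merged into 29871 regions, 8486 of these overlapped a top peak of all 6 lists, and 6268 of the 8486 lay within 1000 bp of an annotated start of a protein-coding transcript. The promoter regions were therefore 21% of all merged regions, 73.9% of those strong in all 6 lists and 50% of the 12543 merged regions near a start. By contrast, 12.8% of the 17328 merged regions away from starts were strong in all 6 lists. Strength in all lists is what selected the regions, so their levels are given as a description with no test.

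A promoter is the stretch around a transcription start where general factors and RNA polymerase II assemble. Active promoters are kept free of nucleosomes over a short span just before the start, and the Tn5 transposase of ATAC-seq (a sequencing assay of open chromatin) cuts there often. Most promoters of broadly used genes lie in CpG islands and hold sites for factors such as SP1 (the GC box), NF-Y (the CCAAT box), ETS factors, NRF1 and YY1, whereas many tissue-restricted promoters are poor in CpG and some carry a TATA box.

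SK-N-AS cells are a human neuroblastoma line, and indisulam is a sulfonamide that recruits the splicing factor RBM39 to the DCAF15 ubiquitin ligase for degradation. The naïve cells were grown out from tumors of vehicle-treated mice, and R1 and R2 from tumors that had relapsed for the second time and were taken during the third cycle of indisulam. The hosts were immunodeficient mice, the labels list no treatment of the cultures, and every library came from 100000 cells. Each of the 3 cell types had 2 libraries, and nothing in the labels says whether these were separate cultures, so a p-value below measures only the spread between libraries. R1 and R2 share the naïve libraries as their control.

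The lists differed in depth. They held 67558 to 340558 peaks, and the background rate that the fold enrichments share within a list was 2.29 and 1.35 tags in naïve, 7.94 and 5.43 in R1, and in R2 0.8503 and 0.899. At the top 20000 limit a peak held 12 and 13 tags in R2 but 84 and 58 in R1, so the relative counting error of such a peak is largest in R2. Fold enrichment (tags at the summit over the background rate of the list, each plus 1) had a median over the regions of 13.1 and 12.8 in naïve, 22.03 and 20.4 in R1, and 12.4 and 12.1 in R2, and these levels were compared between lists only after normalization. Blood, epithelial and endothelial marker genes had none of the regions (0 of 6, 0 of 5 and 0 of 4). Peaks were present at some of them, however: 3 of the 5 epithelial genes and 1 of the 6 blood genes had a strong region in 1 to 5 lists, and the endothelial genes had none. EPCAM (an epithelial adhesion molecule) ranked 31844 and 10899 in naïve, 9334 and 12749 in R1, and 17328 and 10902 in R2, and so missed the limit in naïve replicate 1 only. KRT8 and KRT18 (keratins of simple epithelia) were within the limit in both naïve lists and in R1 replicate 1, with KRT8 also in R2 replicate 1, and SPI1 (a blood cell factor) was within it in both R1 lists, at 10043 and 13890. PTPRC, CD3E and TEK had no peak within 1000 bp of a start in any list. Of the marker genes of neuroblastoma, 5 of 12 adrenergic (GATA2, GATA3, HAND2, TBX2 and TH) and 5 of 10 mesenchymal (FOSL1, FOSL2, RUNX1, TWIST1 and VIM) had one.

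The promoters that show what these regions share are printed first, as 300 bases read 5′ to 3′ along the gene, with 250 bases before the RefSeq start and 50 from the start on (RefSeq promoters of GRCh38.p14). RefSeq promoters were matched for 5683 of 7052 gene symbols (80.6%). Capitals mark matches on either strand. A GC box was searched as GGGCGG and a CCAAT box as the letters of its name. An ETS site was searched as CCGGAAG, and an NRF1 site, which is a palindrome in part, as GCATGCGC. The YY1 site was taken as AAGATGGCG, and the cyclic AMP response element (CRE) was taken as TGACGTCA. An E-box was read as CACGTG, and a TATA box in either direction was read as TATAAA. The ZNF143 site was written for the search as ACTACAATT, the RFX site was written for it as GTTGCCATG, and the element named CGCG for its centre was CTCGCGAG. The CTCF core was taken to be AGGGGGCG, and the AP-1 site with any base in its middle was TGANTCA. A CTCF core followed by G overlaps a GC box. A match is a string of letters and not a measured binding site.

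The first set holds the best-ranked promoters whose strongest summit lay inside the printed window in every list. MSMO1 (a sterol demethylating enzyme of cholesterol synthesis), at chr4:165327419-165327718 on the plus strand, has 4 CCAAT boxes, on both strands. LRRC45 (a centrosome protein), at chr17:82023055-82023354 on the plus strand, also has 4. RAB40B (a RAB-family GTPase), at chr17:82698649-82698948 on the minus strand, has 5 GC boxes and 2 CCAAT boxes. Of the 6 best-ranked regions with a usable RefSeq start, DRD4, SP4 and NARF had their summits outside this window in at least 5 lists, and their sequences are not shown.
MSMO1: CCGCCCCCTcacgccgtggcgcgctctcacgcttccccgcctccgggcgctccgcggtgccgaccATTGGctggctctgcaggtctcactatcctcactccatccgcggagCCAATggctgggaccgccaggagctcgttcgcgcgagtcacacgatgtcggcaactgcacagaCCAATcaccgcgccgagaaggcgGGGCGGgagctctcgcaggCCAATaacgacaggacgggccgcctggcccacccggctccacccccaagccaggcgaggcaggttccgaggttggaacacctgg
LRRC45: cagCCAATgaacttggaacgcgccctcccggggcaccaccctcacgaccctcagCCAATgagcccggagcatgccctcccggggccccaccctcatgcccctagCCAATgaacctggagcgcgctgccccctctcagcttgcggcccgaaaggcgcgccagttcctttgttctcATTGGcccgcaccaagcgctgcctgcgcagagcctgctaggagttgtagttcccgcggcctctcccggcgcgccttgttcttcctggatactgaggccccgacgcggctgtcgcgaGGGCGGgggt
RAB40B: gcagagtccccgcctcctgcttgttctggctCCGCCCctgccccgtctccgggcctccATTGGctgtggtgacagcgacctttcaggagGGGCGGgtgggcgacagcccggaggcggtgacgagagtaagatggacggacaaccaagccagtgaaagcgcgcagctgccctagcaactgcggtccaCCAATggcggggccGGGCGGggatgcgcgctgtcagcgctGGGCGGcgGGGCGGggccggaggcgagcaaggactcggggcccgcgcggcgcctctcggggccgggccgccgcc

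DCAF15, the receptor of the ubiquitin ligase that indisulam acts through, is shown for its role in the study. Its promoter at chr19:13952259-13952558, on the plus strand, holds a GC box, 2 CCAAT boxes and an ETS site, and its summits lay at −151 to −248 from the start in the 6 lists. No sequence is printed for RBM39.
DCAF15: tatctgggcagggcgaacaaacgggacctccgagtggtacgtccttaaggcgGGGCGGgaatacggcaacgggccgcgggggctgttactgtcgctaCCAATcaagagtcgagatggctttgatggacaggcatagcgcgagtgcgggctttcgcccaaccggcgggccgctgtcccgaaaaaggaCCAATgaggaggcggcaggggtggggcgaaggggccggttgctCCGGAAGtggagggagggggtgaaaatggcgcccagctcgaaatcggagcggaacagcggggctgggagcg

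The last set was picked after the values were seen, for 4 other elements at set places near the start. Each is the best-ranked promoter with the element among those not already picked and with a usable RefSeq start. NARF, picked earlier for its rank, also has NRF1 sites and ranks better than NAT9. MRPL38 (a mitochondrial ribosomal protein), at chr17:75904835-75905134 on the minus strand, has a YY1 site that begins 6 bases after the start. NAT9 (an N-acetyltransferase), at chr17:74776296-74776595 on the minus strand, has NRF1 sites. STARD3NL (a late endosomal protein), at chr7:38177995-38178294 on the plus strand, has a CRE, and P4HB (a protein disulfide isomerase), at chr17:81860486-81860785 on the minus strand, has a TATA box beside 3 CCAAT boxes. In P4HB the summits lay at −171 to −414 from the start, in part outside the window.
MRPL38: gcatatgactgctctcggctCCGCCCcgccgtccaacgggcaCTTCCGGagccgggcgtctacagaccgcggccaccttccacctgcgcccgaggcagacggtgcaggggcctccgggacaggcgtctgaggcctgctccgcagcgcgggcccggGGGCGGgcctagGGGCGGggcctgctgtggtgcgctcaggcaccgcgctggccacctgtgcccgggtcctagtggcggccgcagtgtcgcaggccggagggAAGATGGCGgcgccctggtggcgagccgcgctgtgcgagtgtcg
NAT9: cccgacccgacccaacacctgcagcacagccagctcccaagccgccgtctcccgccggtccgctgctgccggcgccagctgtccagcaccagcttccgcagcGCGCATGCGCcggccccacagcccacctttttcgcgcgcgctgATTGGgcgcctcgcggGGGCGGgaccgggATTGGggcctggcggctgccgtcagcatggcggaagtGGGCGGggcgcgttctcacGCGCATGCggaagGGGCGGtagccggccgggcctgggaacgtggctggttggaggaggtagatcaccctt
STARD3NL: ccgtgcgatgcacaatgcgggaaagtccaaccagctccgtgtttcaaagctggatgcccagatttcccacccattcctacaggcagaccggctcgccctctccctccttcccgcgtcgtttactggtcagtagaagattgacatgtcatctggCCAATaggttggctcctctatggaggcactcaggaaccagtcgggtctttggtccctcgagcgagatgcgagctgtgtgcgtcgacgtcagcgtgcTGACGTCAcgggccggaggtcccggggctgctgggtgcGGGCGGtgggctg
P4HB: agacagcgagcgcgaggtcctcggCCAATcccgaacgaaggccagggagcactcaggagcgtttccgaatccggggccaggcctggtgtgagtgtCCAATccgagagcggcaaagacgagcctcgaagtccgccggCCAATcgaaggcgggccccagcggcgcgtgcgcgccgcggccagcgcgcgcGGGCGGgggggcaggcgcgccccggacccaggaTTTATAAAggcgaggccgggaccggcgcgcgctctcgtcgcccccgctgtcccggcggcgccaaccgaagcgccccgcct

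The regions marked 7054 of the 18773 protein-coding genes (37.6%). A further 5263 genes (28%) had a strong region near a start in 1 to 5 of the lists only, and 6456 genes (34.4%) had none. One gene was near 5115 of the regions (81.6%), 1042 had 2 genes and 111 had 3 or more, up to 7. Starts on both strands were near 955 regions (15.2%). Chromosome 20 had the highest share of genes with such a promoter, 270 of 537 (50.3%), followed by chromosome 1 with 948 of 2030 (46.7%). The lowest shares were on chromosome 6, with 223 of 1031 (21.6%), and chromosome 13, with 73 of 320 (22.8%). Equal p-values at the limit, held by 4762 peaks in R2 replicate 1, were ordered by chromosome name as text. That order puts chromosome 1 before chromosome 6, and its part in these shares was not tested.

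Near-misses came mostly from the shallower lists. Of the 6275 regions near a start that were strong in 1 to 5 lists, 1510 were strong in 5. The list that lacked the top peak was R2 replicate 1 in 406 of these and R2 replicate 2 in 390, naïve replicate 2 in 385 and naïve replicate 1 in 280, but R1 replicate 1 in 23 and R1 replicate 2 in 26. Both R1 lists and no other had a top peak at 747 regions, both naïve lists and no other at 150, and both R2 lists and no other at 29. Depth differs in the same order, and its part in these counts was not tested.

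At the limit itself the neighbours were alike. Just inside lay PCOLCE (an enhancer of procollagen processing), ranked 19998 in naïve replicate 2, RPS14 (a ribosomal protein), ranked 19990 in naïve replicate 1, and LOXL2 (a lysyl oxidase), ranked 19986 in R1 replicate 2. Just outside lay SH2B2 (an adaptor protein) and KMT2E (a chromatin protein), ranked 20004 and 20005 in naïve replicate 2, and DCTN3 (a dynactin subunit), ranked 20007 in R1 replicate 2. The fold in the deciding list was 7.66 for PCOLCE as well as for SH2B2 and KMT2E, and 9.17 for LOXL2 as well as DCTN3. Equal p-values were common at the limit, held by 407 peaks in R1 replicate 1 and by up to 4762 in R2 replicate 1, and such peaks were ordered by chromosome and position. Keeping all tied peaks gave 6435 regions, and ranking only peaks of chromosomes 1 to 22 gave 6331.

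The 10 regions with the best mean rank, which is a choice by rank, ranked between 24 and 311 in the 6 lists. The best mean rank, 51, belonged to a region at MEGF6 (a protein with epidermal growth factor repeats) at chr1:3493285-3507220, which ranked between 24 and 79 in the 6 lists. Its fold was 71.5 and 69.8 in naïve, 102 and 113 in R1, and in R2 83.8 and 86.9. The next, at the dopamine receptor gene DRD4 (chr11:635547-645136), had folds of 44.4 and 54.9, 69.9 and 72.4, and 57.8 and 49.0 in the same order. In both regions the summits of all lists fell together, within 98 and 56 bp, but more than 5000 bp from the nearest start, upstream of it for MEGF6 and downstream for DRD4. These regions met the rule by their width, 13936 and 9590 bp, and not by a summit at the start.

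The other 8 of the 10 best had their strongest summit within 1000 bp of a start in all lists. At the centrosome gene LRRC45 (chr17:82002287-82038330, a region of 36044 bp that also reaches ASPSCR1, CENPX, DCXR and RAC3) the 6 summits spanned 26 bp. MSMO1 (chr4:165327129-165328263) ranked 32 to 311 with folds of 60.2 and 41.7 in naïve, 83.8 and 74.8 in R1, and 43.2 and 30.5 in R2. SP4 (chr7:21426339-21428775), a GC-box binding factor of the SP family, had folds of 41.1 and 37.4, 78.1 and 65.9, and 36.2 and 41.6. Both genes had their highest folds in the R1 lists, as did the median of all regions.

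Chromosome 17 held 4 of the 10 best, all near its end: LRRC45, NARF (a nuclear prelamin A recognition factor, chr17:82457074-82459842), RAB40B (chr17:82695916-82707143) and the region at FASN (fatty acid synthase) and CCDC57 (chr17:82075911-82109417). The remaining 2 were EDEM3 (chr1:184754023-184755710), which acts in the degradation of misfolded glycoproteins, and ANKRD10 (chr13:110914013-110916076). ANKRD10 had the lowest naïve folds of the 10, 31.6 and 28.1, against 67.3 and 60.9 in R1, while R2 had 45.4 and 54.8. In the comparison of cell types described below, ANKRD10 was called higher in resistant cells than in naïve (0.75 on the log2 scale, limma adjusted p = 0.00537) and NARF lower (−0.41, limma adjusted p = 0.0299). The plot of fold by library shows these levels beside those of RBM39 and DCAF15.

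**Figure D1:**
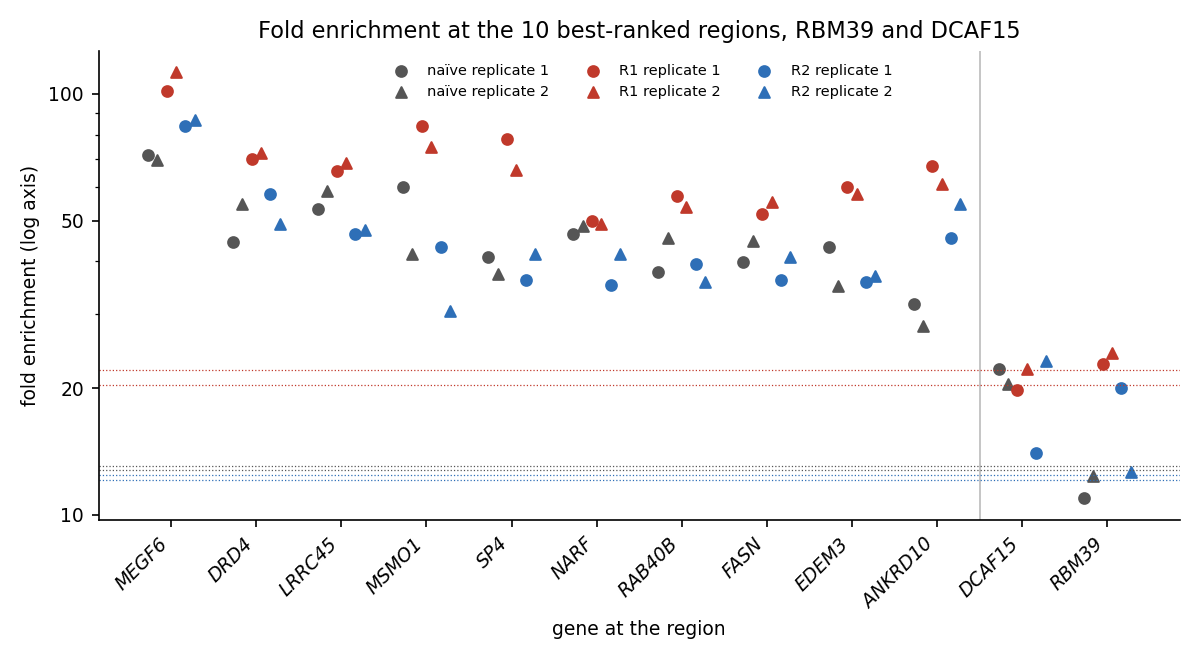
Fold enrichment (vertical, log axis) at the 10 regions with the best mean rank and at DCAF15 and RBM39 (horizontal), with 1 point per library. Circles are replicate 1, triangles replicate 2, and dotted lines mark each library's median over the 6268 regions. The 10 best regions lie between 28.1 and 113, and RBM39 between 10.95 and 24.2.

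Over all regions the median of the mean rank was 5076, and the worst mean rank was 16346. In 1665 regions (26.6%) the rank was 5000 or better in every list. The regions took up 38.5% and 42.5% of the top 20000 peaks in naïve, 32.1% and 33.2% in R1 and 44.3% in each R2 list.

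The summits sat just before the start in all lists. The median position, counted along the gene from the nearest protein-coding start, was −53 in both naïve lists, −55 and −56 in R1 and −56 in both R2 lists. The summit was upstream of the start in 75.4% to 78.5% of the regions and within 250 bp of it in 82.3% to 85.0%. The distance to the start had a median of 78.3 ± 0.354 bp in naïve, 74.5 ± 2.12 bp in R1 and 82.5 ± 2.12 bp in R2 (SD, n = 2). Across the 6 lists, the summits of a region spanned a median of 89 bp. All 6 summits were within 1000 bp of a start in 5630 regions (89.8%), and all 6 were also within 500 bp of each other in 5206 (83.1%). The rule kept only regions near a start, so a summit near a start is in large part fixed by that choice.

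**Figure D2:**
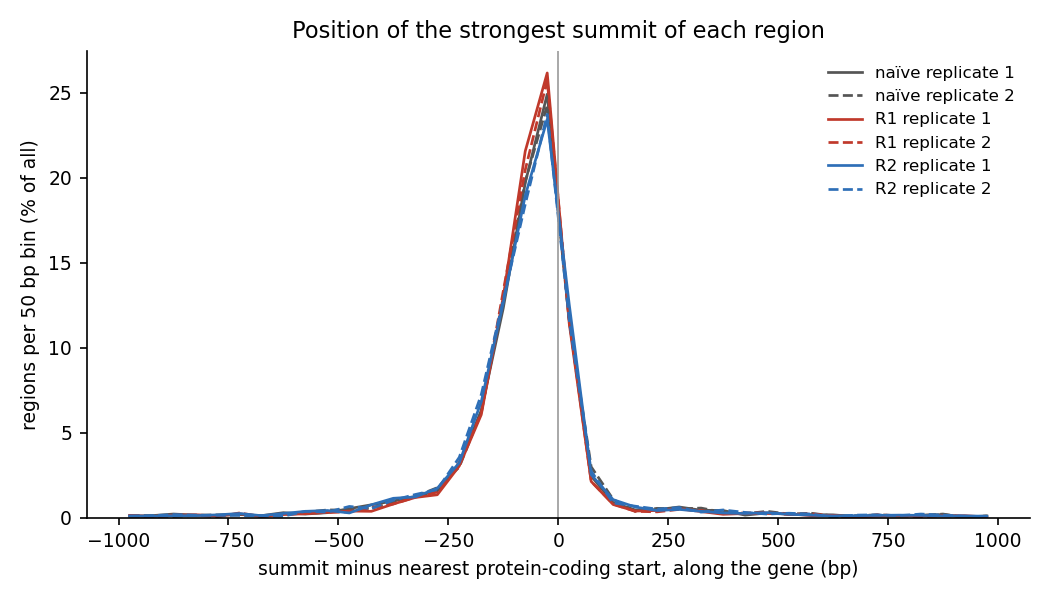
Share of the 6268 regions (vertical, percent per 50 bp bin) by the position of the strongest summit relative to the nearest protein-coding start (horizontal, bp along the gene), with 1 line per library. The 6 lines peak just before the start, with medians between −53 and −56.

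The width of a merged region was 1794 bp at the median, with quartiles of 1236 and 3189 bp, and ran from 273 to 82831 bp. Regions wider than 5000 bp numbered 1025 (16.4%). Peaks themselves were wider in the deeper libraries, with a median of 1692 and 1577 bp at the regions in R1, 951 and 809 bp in naïve, and 612 and 634 bp in R2. A single peak of the list lay in 88.8% and 77.8% of the regions in R1 but in 55.4% to 58.6% in the other lists. When a top peak of each list had to cover a fraction of 0.5 of the merged region, 1026 regions were left.

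Promoters of the marked genes were rich in GC and CpG. For the 300 bases around the annotated start, the median GC content was 68.3% for 6708 promoters at the regions, 66.3% for 5156 promoters strong in 1 to 5 lists and 54% for 6908 with no strong region. The CpG ratio (observed over expected from base composition) was 0.875, 0.842 and 0.344 at the median. A CpG-rich window, with GC of at least 50% and a ratio of at least 0.6, was found in 91.2%, 82.8% and 30.1% of the promoters. Another gene started on the opposite strand within 1000 bp upstream for 19.9%, 13.9% and 3.04%. The rule used no base composition, but these 3 classes also differ in openness by construction, and values over promoters are given without a test.

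The GC box was present in 82.2% of the promoters at the regions, against 72.8% of those strong in 1 to 5 lists, 34.4% of those with no strong region and 62% of all 18772 promoters. ETS sites were present in 20%, 18%, 5.59% and 14.1%, NRF1 sites in 6.38%, 5.08%, 1.4% and 4.19%, and YY1 sites in 4.26%, 3.8%, 0.854% and 2.88%, in the same order. The CCAAT box behaved otherwise, at 41.6%, 29.4%, 34.8% and 35.8%. It was thus less frequent in promoters strong in some lists than in those with no strong region. Their median GC content was 66.3% and 54%, and the part of base composition in this order was not tested. The GATA letters (AGATAA) and TEAD letters (GGAATG), with 3.09% and 8.9% at the regions and 13% and 13.9% at promoters with no strong region, went the other way, beside the difference in GC content given above.

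TATA boxes and AP-1 sites were rare. TATAAA placed 40 to 20 bases before the start occurred in 1.73% of the promoters at the regions, 2.17% of those strong in 1 to 5 lists and 7.66% of those with no strong region. AP-1 sites occurred in 2.97%, 3.84% and 8.87%. Around the summits of the first naïve list, AP-1 letters were in 4.39% of the regions and in 16.6% of the 2218 regions strong in all 6 lists but away from starts, where the median GC content was 62.7% against 69%.

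Of the 15 motifs searched, the CCAAT box had the widest span, in percentage points, over the ranks of the regions. In 4 groups of 1677 promoters each, from the best to the worst mean rank, it was present in 54.9%, 45.3%, 37.5% and 28.7%. The GC box fell from 87.4% to 76.9% over the same groups and median GC content from 70% to 67%, while ETS sites were in 15.9% of the best group and 20.2% of the worst, and NRF1 sites in 5.31% and 6.80%. The rank also selected the regions, so this is a description of their order. MSMO1, LRRC45 and RAB40B above, with 4, 4 and 2 CCAAT boxes, belong to the best group. Of the best-ranked promoters whose sequences are not shown, SP4 has 1 CCAAT box in its RefSeq window, and DRD4 and NARF have none.

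**Figure D3:**
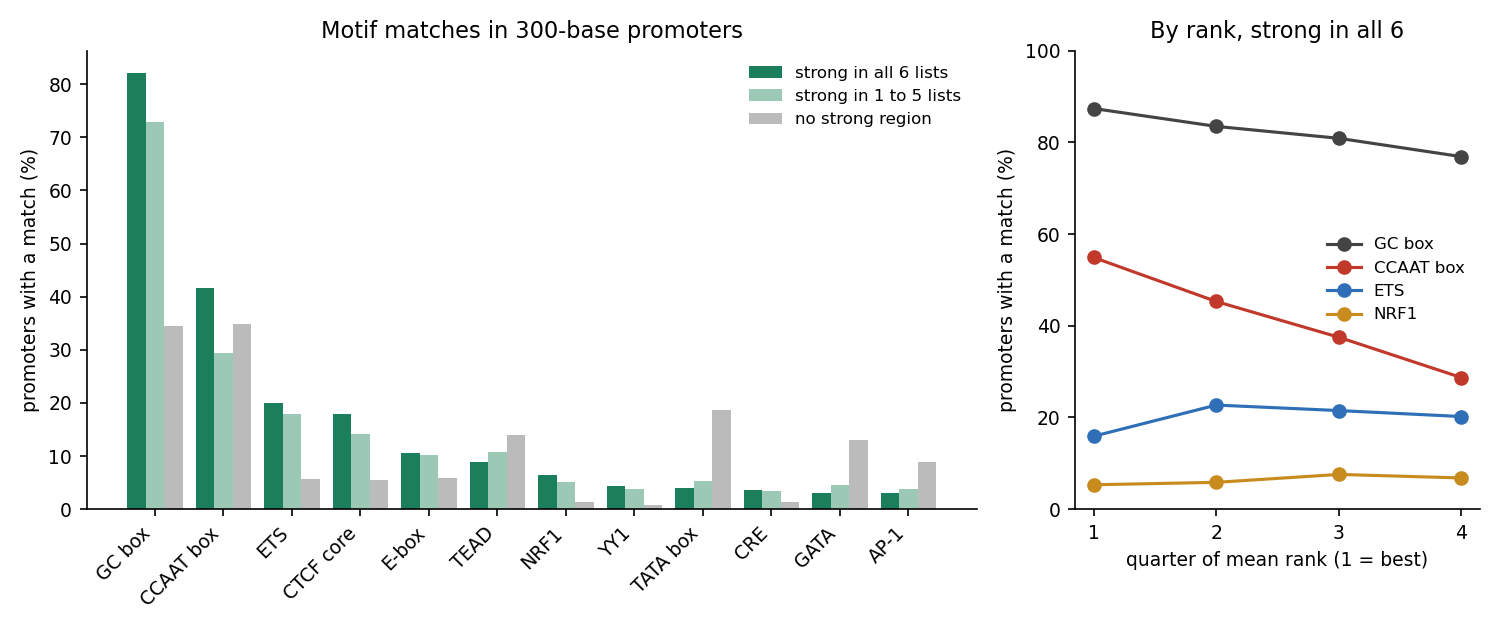
Left, share of 300-base promoters with a motif match (vertical, percent) for 12 motifs, with bars for promoters strong in all 6 lists, strong in 1 to 5 lists and with no strong region. Right, the share in 4 groups of equal size by mean rank, among promoters strong in all 6 lists (group 1 is best). The CCAAT box falls from 54.9% to 28.7% and the GC box from 87.4% to 76.9%.

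Motif positions differed between elements. CCAAT boxes were most frequent 75 to 51 bases before the start and had a median position of −88, with 85.9% upstream. GC boxes had a median of −43.5, ETS sites of −30 and NRF1 sites of −59. YY1 sites lay after the start, with 38.2% in bases 0 to 24 and 82.6% on the strand of the gene, as in MRPL38. ZNF143 sites were farthest upstream, at a median of −120.5, and 38.1% of TATA boxes lay 50 to 26 bases before the start. CCAAT, NRF1 and ZNF143 matches were near evenly divided between strands, with 48.7%, 48.4% and 50% on the gene's strand.

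Gene groups differed widely in how many members had a constitutive strong promoter. Against 37.6% of all protein-coding genes, the share was 75% for cell cycle and DNA replication genes (39 of 52), 71.6% for splicing factors (58 of 81), 63.9% for respiratory chain and ATP synthase genes (46 of 72), 62.3% for translation initiation factors (33 of 53), 60.5% for proteasome subunits (23 of 38) and 51.4% for RNA polymerase II and its general factors (19 of 37). Reference genes of expression assays had 11 of 14, AP-1 factors 8 of 10 and MYC with its partners 7 of 11. Adrenergic factors had 6 of 14 (42.9%) and mesenchymal factors 10 of 16 (62.5%). All lists were chosen with earlier results of these data known.

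Among splicing factors the best ranks were those of HNRNPR (an hnRNP), between 370 and 1100, and SRSF2 (an SR protein), between 471 and 1385. The worst mean ranks were those of PRPF38A, whose ranks ran from 6779 to 18390, and SNRPC, a U1 snRNP protein, from 9490 to 13631. The 13 factors strong only in some lists include SF3B1 (the branch site recognition subunit), PRPF8 (the scaffold of the catalytic spliceosome), SNRNP200 (a helicase) and HNRNPK. U2AF1 and SF3B3 had no top peak near a start.

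In the cell cycle list, CDC25C (a phosphatase that activates CDK1) ranked 403 to 879 and RPA3 (a single-strand DNA binding subunit) 229 to 944. PLK1, a mitotic kinase, ranked between 11148 and 16617, and ORC1 shares the region of PRPF38A. AURKB, RB1, RFC1 and RFC3 had no strong region. Of the AP-1 genes, ATF3 ranked 332 to 1036 and JUN 1078 to 2067, while FOSL1 and FOS were the worst by mean rank. MXD4 and MXD1, which compete with MYC for MAX, were the best of the MYC network, with ranks of 152 to 761 and 555 to 1514.

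Ribosomal protein genes, which are among the most transcribed of any cell, did not lead. Cytoplasmic ribosomal protein genes had 37 of 82 (45.1%) and 35 more strong in 1 to 5 lists, and mitochondrial ones 40 of 78 (51.3%). The median of the mean rank was 6383 for the first and 4422 for the second, against 5076 over all regions. RPL36 was best among the cytoplasmic genes, with ranks of 543 and 638 in naïve, 4899 and 3002 in R1 and 1629 and 2609 in R2. MRPL38 and MRPL12 led the mitochondrial list, with ranks of 101 to 272 and 227 to 534.

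Gene families in clusters and tissue-restricted families had few or none. Replication-dependent histone genes had 2 of 69 (2.90%), which share 1 region at H2AC25 and H2BC26. Clustered protocadherins had 1 of 53 (PCDHGC3), keratins 0 of 55 and olfactory receptors 0 of 389. Potassium channel genes had 19 of 93 (20.4%), led by KCNJ2, and numbered zinc finger genes 164 of 496 (33.1%), led by ZNF687 with ranks of 133 to 332. Reads that map to several members of such clusters were subject to the authors' mapping quality filter, and its part in these shares was not tested.

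**Figure D4:**
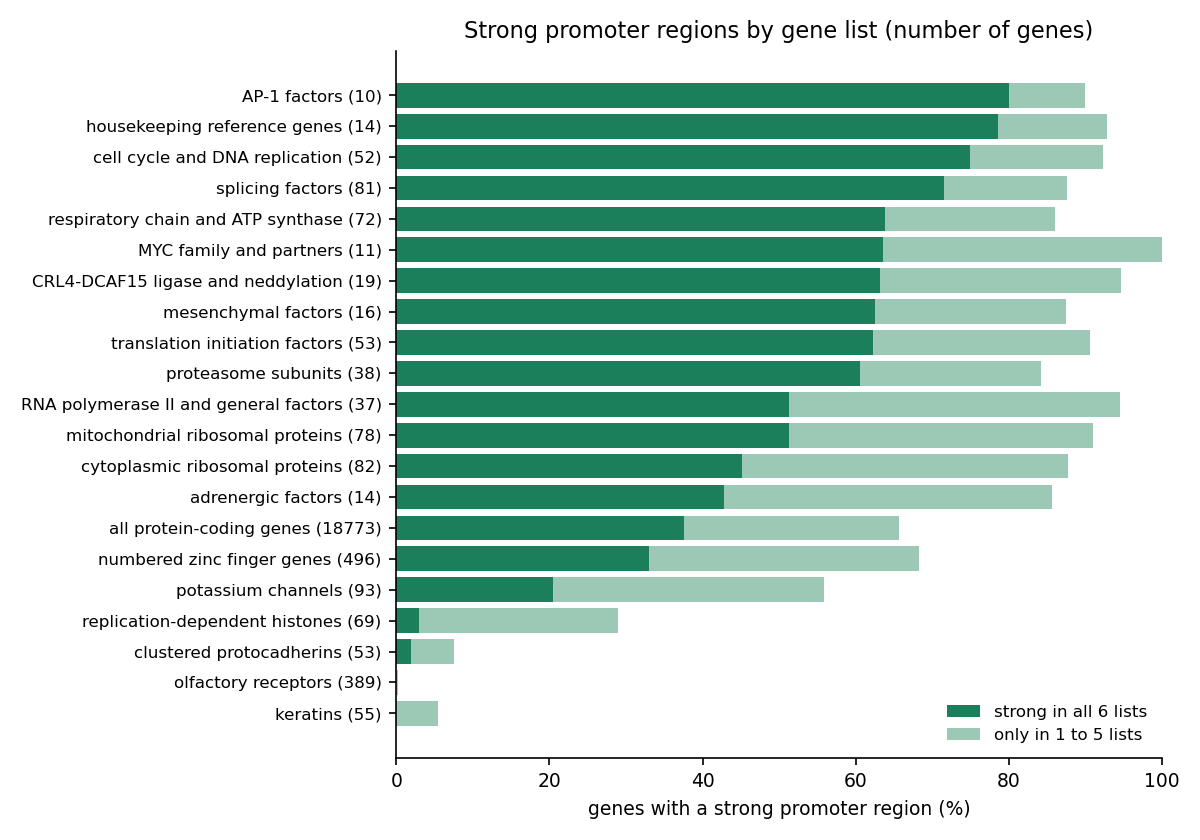
Share of the genes of each list (horizontal, percent) with a region strong in all 6 lists (dark) or in 1 to 5 lists only (light), with the number of genes in parentheses. Cell cycle, splicing and AP-1 lists lie above the 37.6% of all protein-coding genes, and histones, protocadherins, keratins and olfactory receptors below 3%.

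The genes that indisulam acts through were read one by one, by the best peak within 1000 bp of a start. RBM39, the degraded splicing factor (chr20:35741512-35742762), ranked 7843 and 5245 in naïve, 3643 and 2333 in R1, and 1113 and 4585 in R2, with folds of 10.95 and 12.3, 22.8 and 24.2, and 19.997 and 12.6. Its paralog RBM23 (chr14:22918552-22919835), also degraded through DCAF15, ranked between 4130 and 8223. DCAF15 (chr19:13951502-13954823) ranked 804 and 956 in naïve, 5350 and 3078 in R1, and in R2 3375 and 642. The ranks of RBM39 were better in all 4 resistant lists than in both naïve lists, and those of DCAF15 overlapped.

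Of the 19 genes of the ligase and its neddylation pathway, 12 had a constitutive strong promoter. They include the adaptor DDB1, DDA1, the neddylation enzymes UBE2M and NAE1, the exchange factor CAND1 and 6 subunits of the COP9 signalosome. CUL4A (the scaffold), RBX1 (the RING subunit), NEDD8, UBA3, COPS2 and COPS3 were strong in 1 to 5 lists only, and COPS6 in none. CUL4A ranked 23515 and 9258 in naïve but 1067 and 2745 in R1 and 1954 and 4910 in R2, so naïve replicate 1 alone kept it out. MYC (chr8:127734847-127736633) ranked between 2716 and 5673 in all lists. MYCN had a peak near its start in 3 of the 6 lists, at 11444 and 15089 in R1 and 35788 in R2 replicate 1.

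To compare the cell types, log2 fold enrichment was quantile-normalized over 19620 merged regions with a peak in all lists and tested with limma, with Benjamini-Hochberg adjustment over all 19620 and calls at an adjusted p under 0.05. All 6268 promoter regions entered by their choice, and the choice limits how much they can differ. Resistant cells (the mean of R1 and R2) against naïve gave 255 promoter regions higher, 4.07%, where 4.86% of all tested regions were called, and 153 lower, 2.44%, where 4.86% were. In 90% of the promoter regions the difference was under 0.5 on the log2 scale, and 12 regions exceeded 1. All 4 resistant libraries lay above both naïve libraries in 815 promoter regions (13%, with 13.3% of all tested regions) and below in 852 (13.6%, with 15.2%). These shares are near the background or under it.

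The calls depended on naïve replicate 1, over all tested regions as well as in the promoter regions, so this loss does not set promoters apart. Without naïve replicate 1, 0 promoter regions were called in either direction for resistant against naïve by limma (1176 had an unadjusted p under 0.05, against 1344 with all libraries), and without naïve replicate 2 the counts were 61 and 12. Without R1 replicate 1 they were 80 and 21, and without R1 replicate 2 they were 99 and 39. The promoter split of 255 higher to 153 lower stood beside 954 to 954 over all tested regions. With median centring it became 405 to 147, beside 1326 to 1403 over all tested regions. On percentile ranks it was 179 to 42, beside 526 to 529 over all. After adjustment for GC content it was 196 to 160, beside 879 to 948. When each chromosome was centred on its own median it was 104 to 50, beside 505 to 567.

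R1 against naïve gave 427 promoter regions higher (6.75% of all tested regions were called higher, 6.81% of the promoter regions) and 218 lower, 3.48%, where 7.46% of all tested regions were. R2 against naïve gave 62 higher, 0.989%, with 2.41% of all tested, and 39 lower, 0.622%, with 1.22% of all tested. In both comparisons 45 promoter regions were called higher and 18 lower, and the shared naïve libraries enter both. The same count was not taken over all tested regions, so this overlap has no background to be read against. Over all tested regions, GC adjustment took R1 against naïve from 1325 higher and 1463 lower to 1103 and 1217. On percentile ranks, R2 against naïve had 0 higher and 0 lower over all tested regions. Each omission of a library listed below also lowered the calls over all tested regions, so these losses do not set promoters apart. The counts that follow are of promoter regions. Adjustment for GC content turned the R1 counts to 269 and 242 and the median of the promoter regions from 0.05 to −0.02, and without naïve replicate 1 they were 152 and 41. Without R1 replicate 1 they were 70 and 15, without R1 replicate 2 they were 115 and 24, and without naïve replicate 2 they were 229 and 77. For R2, no promoter region was called by limma without naïve replicate 1, without R2 replicate 1, or on percentile ranks, while 931, 1042 and 1027 had an unadjusted p under 0.05. The R2 counts were 6 and 1 without naïve replicate 2, 4 and 11 without R2 replicate 2, 28 and 20 without R1 replicate 1, and 27 and 18 without R1 replicate 2.

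The differences followed chromosomes. Chromosome 13 had 42 of its 63 promoter regions called higher in resistant cells and 0 lower, with a median difference of 0.69 on the log2 scale. On chromosome 20, 55 of 239 were higher and 0 lower (median 0.40), and on chromosome 22, 19 of 111 were higher and 0 lower (median 0.38). Together these 3 chromosomes held 116 of the 255 higher calls on 413 regions. Chromosome 19 had 65 of the 153 lower calls and a median of −0.28, and 62 of these lay in its first 20 Mb (26.1% of 238 regions), a division made after the values were seen. On the remaining 18 chromosomes 137 regions were higher (2.54%) and 88 lower (1.63%). These include chromosome 4, with 27 of 276 higher and 0 lower, and chromosome 6, with 21 of 195 higher and 2 lower. Strong regions away from starts had medians of 0.49, 0.145, 0.22 and −0.30 on chromosomes 13, 20, 22 and 19, on the same side as the promoters. On chromosome 4 the median was 0.18 for promoters but −0.02 for strong regions away from starts. The 2 medians also differed in sign on chromosomes 8, 11, 12 and 21. Calls over all tested regions were not counted by chromosome, so these counts do not set promoters apart. The number of copies of a chromosome and the openness of each copy cannot be told apart in these lists.

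**Figure D5:**
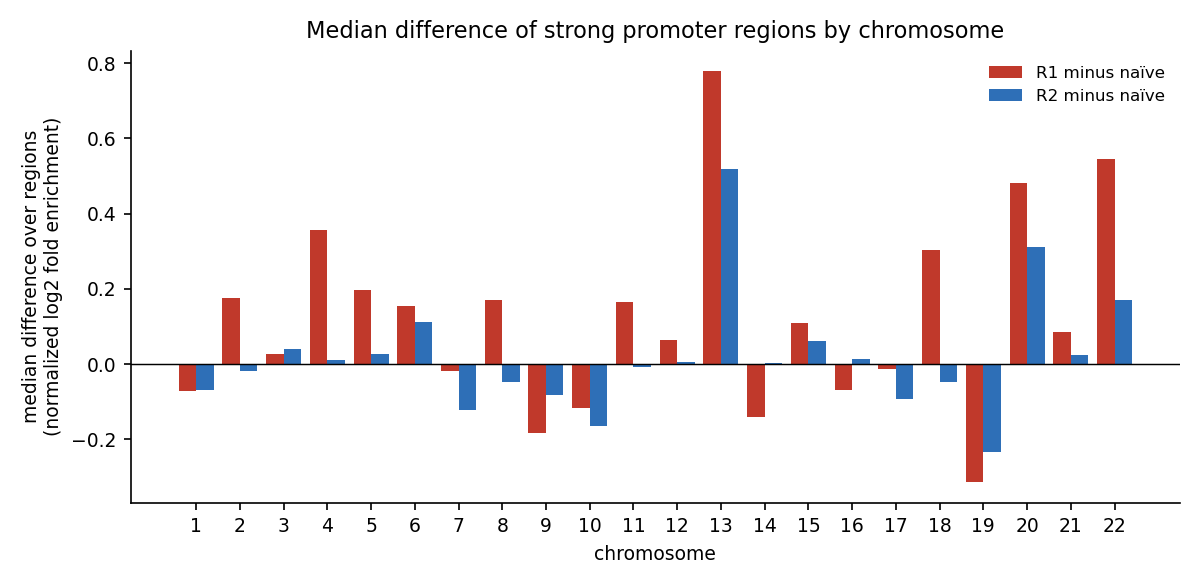
Median difference of the promoter regions of each chromosome (vertical, normalized log2 fold enrichment) for R1 minus naïve and R2 minus naïve (bars). Chromosome 13 stands highest in both comparisons, at 0.78 and 0.52, chromosomes 20 and 22 are next in R1, and chromosome 19 is lowest in both, at −0.31 and −0.23.

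The highest differences were on few chromosomes as well. DIAPH3 (a formin, chr13:60163335-60164542) had normalized log2 folds of 3.97 and 3.68 in naïve, 5.27 and 5.12 in R1, and 4.70 and 5.05 in R2, a difference of 1.21 ± 0.15 (SE, limma adjusted p = 0.00293). UCHL3 (a ubiquitin hydrolase, chr13:75548824-75550522) had 3.25 and 3.49, 4.48 and 4.64, and 4.76 and 4.36, a difference of 1.18. For both genes every resistant library was above both naïve libraries. DOCK9 (a CDC42 activator) and LIG4 (the ligase of DNA end joining), also on chromosome 13, differed by 1.06 and 0.999. With each chromosome centred on its own median, the differences of DIAPH3 and UCHL3 were 0.69 and 0.66 and passed the test (limma adjusted p = 0.0256 and 0.0352), and those of DOCK9 and LIG4 were 0.54 and 0.48 and did not (limma adjusted p = 0.0821 and 0.0574). In DOCK9 the strongest summit of naïve replicate 2 lay at 31 from the nearest start and those of the other 5 lists at −1078 to −1096, so its values also come from different places in one region.

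Chromosome 6 gave 3 of the 10. They were the region of PTP4A1 (a phosphatase, chr6:63571764-63574049, shared with ENSG00000285976), SNX3 (a sorting nexin, chr6:108260119-108261607) and SYNCRIP (an RNA-binding protein, chr6:85641584-85644311), with differences of 1.18, 1.12 and 1.04. All 3 lie beyond 60 Mb, a division made after the values were seen. There 14 of the 35 promoter regions of the chromosome were called higher (40%), against 7 of 160 (4.38%) before it. Calls over all tested regions were not counted in this stretch, so these shares do not set promoters apart. Over the whole of chromosome 6 the median difference was 0.136 for promoter regions and 0.153 for strong regions away from starts. The other 3 of the 10 were ANKEF1 on chromosome 20 (1.15), STARD5, a lipid transfer protein, on chromosome 15 (1.15), and DNAJC27 on chromosome 2 (1.05). In SYNCRIP, R1 and R2 differed, with 5.17 and 4.88 in R1 but 4.17 and 4.03 in R2 (R2 minus R1, −0.92 ± 0.19, limma adjusted p = 0.0173).

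Among the 10 lowest, 3 lay on chromosome 7 and 4 on chromosome 19. BPGM (the enzyme that makes 2,3-bisphosphoglycerate, chr7:134646446-134647246) had 5.57 and 4.93 in naïve, 3.77 and 3.75 in R1, and 4.27 and 4.32 in R2, a difference of −1.22 ± 0.17 (SE, limma adjusted p = 0.00414). CYREN (a regulator of DNA end joining) and CHCHD3 (a mitochondrial inner membrane protein), at 135169614 and 133081515 on the same chromosome, differed by −1.05 and −0.83. The chromosome 19 regions were those of LYL1 (a helix-loop-helix factor, −1.17), DDX39A (an RNA helicase, −0.999), IZUMO4 with MOB3A (−0.85) and ZNF136 (−0.84). CYB561 and CUEDC1 on chromosome 17 (−0.95 and −0.85) and CFAP43 on chromosome 10 (−0.83) complete them. With each chromosome centred, DDX39A and ZNF136 did not pass the test (−0.67 and −0.51, limma adjusted p = 0.0537 and 0.0969), and IZUMO4 passed with −0.52 (limma adjusted p = 0.0473). On percentile ranks DDX39A and CFAP43 did not pass (limma adjusted p = 0.0855 and 0.0587). In LYL1, CYB561 and CUEDC1 the strongest summits of the lists were 1982, 5416 and 2475 bp apart, so their values come from different places in one region.

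Without naïve replicate 1 none of these 20 regions passed the test by limma, with adjusted p-values from 0.0634 to 0.108, and all 20 kept their direction. Without naïve replicate 2, 7 of the 20 did not pass. Without R1 replicate 1, CUEDC1 and ZNF136 did not (limma adjusted p = 0.0512 and 0.0536).

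R2 against R1, which leaves the naïve libraries out of the difference, gave 50 promoter regions higher in R2, 0.798%, with 5.05% of all tested regions, and 166 lower, 2.65%, with 2.15% of all tested. Of the 2218 regions strong in all lists but away from starts, 318 (14.3%) were higher in R2 and 36 (1.62%) lower. The median GC content around the summit was 71.5% in the 166 lower promoter regions, 61.7% in the 50 higher ones and 67.1% over all. Adjustment for GC content gave 42 higher and 55 lower promoter regions, beside 501 and 214 of all tested regions. Without R1 replicate 1 the counts were 7 and 27, without R1 replicate 2 they were 12 and 66, without R2 replicate 1 they were 23 and 65, and without R2 replicate 2 they were 28 and 106. On each of these omissions the higher calls over all tested regions fell too, and the lower calls fell except without R2 replicate 2. Depth also differs most between R1 and R2, and its part was not tested.

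Higher in R2 were FAM240C (chr2:241893923-241901378, 1.43 ± 0.19), TNFRSF6B with ZGPAT and ARFRP1 (1.37 ± 0.15), LMNA (the lamin A gene, 1.21 ± 0.16), ATP11A (a phospholipid flippase, 1.14 ± 0.20) and MRPL28 (1.13 ± 0.18). In LMNA the strongest summit of the naïve and R2 lists was within 200 bp of a start. That of the R1 lists was 3850 and 3879 bp after the start nearest to it. In FAM240C all summits were 2561 to 2650 bp from the start, and in ATP11A 1291 to 1330 bp. ATP11A did not pass without R1 replicate 1 or without R2 replicate 2 (limma adjusted p = 0.0826 and 0.0503). TNFRSF6B had normalized log2 folds of 3.97 and 4.16 in naïve, 4.03 and 4.03 in R1 and 5.402 and 5.39 in R2, with summits up to 14516 bp apart. MRPL28 had 4.03 and 3.74, 3.91 and 3.70, and 4.88 and 4.99. Each of its summits was within 100 bp of the start nearest to it, and the summits were up to 346 bp apart.

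Lower in R2 were MSMO1 (−1.404 ± 0.16), FHIP1B (−1.35 ± 0.15), EEPD1 (−1.29 ± 0.12), SP4 (−1.16 ± 0.14) and LARP1B (−1.15 ± 0.15). All of these are among the highest regions of the lists, ranked 32 to 527. With median centring in place of quantile normalization, MSMO1, EEPD1, SP4 and LARP1B did not pass the test (limma adjusted p = 0.1215, 0.0773, 0.378 and 0.101) and their differences were −0.46, −0.45, −0.22 and −0.40. FHIP1B still passed with −0.66 (limma adjusted p = 0.00998).

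Calls in the gene lists are given as a description. The counts below are to be read against all promoter regions, of which 4.07% were called higher and 2.44% lower in resistant against naïve and 1344 of 6268 had an unadjusted p under 0.05. No list was tested against these shares. Of the splicing factor regions, 1 of 60 was higher in resistant cells (SF3A1 on chromosome 22, 0.57) and 1 lower (SF3A2 on chromosome 19, −0.71), with a list median of −0.01 against 0.01 over all promoter regions. Cell cycle regions had 4 of 41 higher and 0 lower with a median of 0.11: AURKA (0.55) and E2F1 (0.49) on chromosome 20, ORC3 (0.84) on chromosome 6 and CDC25C (0.72) on chromosome 5. Respiratory chain regions had 1 of 46 higher (NDUFC1 on chromosome 4, 0.60) and 3 lower, ATP5F1D, NDUFA11 and NDUFB7, all on chromosome 19 (−0.70, −0.51 and −0.82). Of 38 cytoplasmic ribosomal protein regions RPS21 on chromosome 20 was higher (0.70) and RPL36 on chromosome 19 lower (−0.62), and translation initiation factors had EIF2S2 on chromosome 20 higher (0.88) of 34 regions. Of 44 mitochondrial ribosomal protein regions 0 were higher and 3 lower, 2 at MRPL34 on chromosome 19 and 1 at MRPL58 on chromosome 17, and 13 had an unadjusted p under 0.05.

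Proteasome, RNA polymerase II, MYC network and adrenergic factor regions had none called in resistant against naïve by limma, of 24, 19, 8 and 7, with 2, 3, 1 and 0 at an unadjusted p under 0.05. Reference genes (14 regions), potassium channels (21), protocadherins (1) and the adrenergic and mesenchymal markers (6 and 5) also had none called by limma, with 1, 5, 0, 0 and 2 at an unadjusted p under 0.05. The histone region was lower (−0.61). Of 9 AP-1 factor regions, JUNB on chromosome 19 was lower (−0.63), and of 12 mesenchymal factor regions, TBX18 on chromosome 6 was higher (0.92). Among 164 zinc finger regions 4 were higher and 10 lower. In the ligase and neddylation list 0 of 12 passed in any comparison by limma, and 4 had an unadjusted p under 0.05 in resistant against naïve.

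RBM39 had normalized log2 folds of 3.61 and 3.85 in naïve, 3.9988 and 4.204 in R1, and 4.54 and 3.93 in R2. All 4 resistant libraries were above both naïve libraries, but the difference of 0.44 ± 0.19 (SE) did not pass the test (limma adjusted p = 0.161), and the median of the promoter regions of its chromosome was 0.40. DCAF15 had 4.63 and 4.58, 3.79 and 4.08, and 4.08 and 4.76, and its groups overlapped (−0.43 ± 0.19, limma adjusted p = 0.173). MYC had 3.87 and 4.16, 4.13 and 4.12, and 3.83 and 3.86, with a difference of −0.03 ± 0.15 (limma adjusted p = 0.922).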

How the data were processed

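ATAC-seq was performed on naïve, R1 and R2 SK-N-AS cells, with 2 libraries per cell type. Per the labels and methods, the authors aligned reads with BWA (version 0.7.12-r1039), marked duplicates with Picard (1.65), filtered with SAMtools (1.3.1), dropped mitochondrial reads and shifted reads by +4 or −5 bp. MACS2 (2.2.7.1, q of 0.01, extension of 200 bp, shift of 100 bp) was run on each library. Versions of BWA and MACS2 come from the submitters' processing notes, which name hg19 and hg38, while the methods name hg19. All peaks fit within the hg38 chromosome lengths, and coordinates were read as hg38 with GENCODE release 44. The deposited narrowPeak lists give fold enrichment, −log10 p-value, −log10 q-value, a score and a summit offset, the score not being used. They hold no counts, so no count test was run. All folds of a list were whole multiples of 1 step within 0.01 tags, which gave its background rate.

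Ranks were taken over each whole list before chromosomes 1 to 22 were kept. A region took, in each list, the peak with the highest −log10 p inside it. Contrasts used limma (3.58.1, R 4.3.3) with a mean-variance trend on quantile-normalized log2 fold, without a replicate term, with 3 residual degrees of freedom. With 2 libraries against 4, an exact permutation test cannot go below p = 0.0667 (one-sided). The replicate numbers of the titles did not pair the libraries: deviations of same-numbered libraries correlated at 0.0547, −0.0289 and 0.00338. The merging, the background rates and the limma fit were tested on simulated data. Python 3.11.15, NumPy 2.4.6, pandas 2.3.3, pysam 0.24.0 and BEDTools 2.31.1 were used.

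Named regions are the 10 best by mean rank, 3 on each side of the limit, the 10 highest and 10 lowest called in resistant against naïve with R1 and R2 on the same side, 5 in each direction of R2 against R1, the indisulam pathway genes with MYC and MYCN, and the best and worst of each gene list. The regions, lists and tests were chosen with earlier results of these data known. The promoters printed for their YY1, NRF1, CRE and TATA matches were picked after values were seen.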

Additional observations from a re-analysis of the deposited data

Results flagged for a closer look

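The effects of R1 and of R2 against naïve differed, by the limma contrast of R2 and R1, in 50 promoter regions that were higher in R2 and 166 that were lower. The regions that differed most were FAM240C (1.43), TNFRSF6B (1.37), LMNA (1.21), ATP11A (1.14) and MRPL28 (1.13), higher in R2, and MSMO1 (−1.4), FHIP1B (−1.35), EEPD1 (−1.29), SP4 (−1.16) and LARP1B (−1.15), lower in R2, all on the log2 scale. On percentile ranks 8 of these 10 did not pass the test, and with median centring 4 did not. Each group holds 2 libraries, so single libraries were not screened for outliers.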

How the results depend on the processing

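Precision is limited by 2 libraries a group and by 12 to 84 tags in a peak at the limit, the fewest in R2. The number of promoter regions was 3753 with the top 10000 peaks per list, 9620 with the top 50000 and 1026 when a peak had to cover a fraction of 0.5 of the region. The other rules for distance, for starts and for ranking on chromosomes 1 to 22 gave 5830 to 6387, and leaving out each library gave 6290 to 6674. Ranking by fold and a −log10 q of at least 5 each gave 6268. Fold and p both follow the tag count within a list, and all 6268 regions passed that q in every list. Neither rule could therefore move the count. For resistant against naïve (255 higher, 153 lower), higher counts were 405 with median centring, 167 without the mean-variance trend and 104 centred on each chromosome, and lower counts 42 on percentile ranks, 84 without the trend and 50 centred on each chromosome. For R1 against naïve (427 and 218), higher counts were 714 with median centring, 261 on percentile ranks, 269 adjusted for GC content and 220 centred on each chromosome, where 99 were lower. For R2 against naïve (62 and 39), higher counts were 121 with median centring, 0 on percentile ranks, 36 without the trend and 24 centred on each chromosome, and lower counts 0 on percentile ranks and 13 in each of the last 2. For R2 against R1 (50 and 166), 106 were higher and 292 lower with median centring, 28 were higher among regions with all 6 summits together, and 32 were lower on percentile ranks, 78 without the trend and 55 adjusted for GC content. Leaving out each library gave 0 to 243 higher and 0 to 164 lower for resistant, 70 to 519 and 15 to 293 for R1, 0 to 28 and 0 to 20 for R2, and 7 to 41 and 27 to 131 for R2 against R1. These counts are of promoter regions only and do not set them apart from other regions. The cause of these shifts was not tested.

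The replicate numbers share only a number, and a replicate block gave 276 higher and 178 lower for resistant, 478 and 233 for R1, 68 and 51 for R2, and 53 and 187 for R2 against R1. GC boxes were in 80.8% of windows around the first naïve summit, 84.8% with the top 10000 and 79.5% with the top 50000 peaks. CCAAT boxes were in 47.8% and 38.3% with the top 10000 and 50000. Around the summit, ETS sites were in 18.5%, NRF1 in 5.74% and YY1 in 3.24%, and NRF1 was in 5.62% with the top 10000. With the top 10000, shares of gene lists were 40.7% for splicing factors, 22% for cytoplasmic ribosomal proteins, 50% for cell cycle genes and 17.5% for zinc finger genes, and with the top 50000 they were 84% for splicing factors, 68.3% for cytoplasmic ribosomal proteins, 51.2% for zinc finger genes and 14.5% for histones. The mean over lists of the median summit distance was 78.4 bp, and 111 bp with canonical starts only. Rankings on chromosomes 1 to 22 only, ties kept and summits together were chosen after seeing the data. None of the 30 named differences changed direction under any alternative run.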
